A study of Rattus norvegicus with 12 samples.

Results

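The changes described here are those of F11 cells after 4 h of forskolin, measured on the 3 arrays labelled with that time point out of 12 in the series. F11 is a sensory-neuron-like line obtained by fusing mouse neuroblastoma cells with neurons of rat dorsal root ganglia. The tested cells had 3 h in medium with 0.5% fetal calf serum and then 10 µM forskolin for 4 h. The reference was RNA of unstimulated F11 cells taken after the same 3 h in low-serum medium, and it served all arrays. Arrays of cells given forskolin for 2 h and for 24 h, 3 each, are used for comparison, and those of 48 h are shown for the course of some genes. On every array the forskolin RNA carried Cy3 (green) and the reference RNA Cy5 (red), on rat oligonucleotide probes, so a change is the log2 ratio of green over red within an array. All non-control probes were taken, which gave 35526 genes or unnamed transcripts, and the 17803 with a probe well above background on all 3 arrays of some time point were tested.

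Several features of this design touch all that follows. The dyes were never swapped, so a dye effect peculiar to a probe stays in each change against the reference and cancels between times. Unstimulated cells kept for a further 4 h are not analysed here, so forskolin and time in low serum cannot be told apart. The reference counts as 1 control sample, and the spread between control cultures is left out. Each slide held all 4 times of a replicate number, always with 4 h at position 2, so array position cannot be told apart from time. Nothing says that the triplicates were separate cultures, so p-values measure the spread between these arrays, which may be technical. How much signal the mouse copies of a gene gave on rat probes was not tested.

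Forskolin is a plant diterpene that activates adenylyl cyclases directly. The cyclic AMP formed releases the catalytic subunits of protein kinase A, which phosphorylate the transcription factor CREB at promoters with a cyclic AMP response element, while dephosphorylated CRTC coactivators join it there. The response is known to limit itself, since CREB targets include phosphodiesterases, which degrade cyclic AMP, salt-inducible kinase 1, which keeps CRTC out of the nucleus, and short repressor forms of CREM. In sensory neurons and their precursors cyclic AMP is known for raising neuropeptide transcription and for aiding axon growth.

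The classical response element is the palindrome TGACGTCA, and its short form is TGACG, or CGTCA on the other strand. Both were searched on both strands in the 250 bases before the annotated starts of a RefSeq promoter table (build GRCr8), and a window with the palindrome counts under both, since it contains the short form. Of the 20 largest rises among genes with a RefSeq name 15 had an entry. Of these 9 (60%) held a short form and 1 (6.67%) the palindrome. Of the 20 largest falls among such genes 9 had an entry, of which 2 (22.2%) held a short form and 0 the palindrome. Among all 7651 tested genes with an entry the shares were 29.5% and 3.02%, counted over 8152 windows, whereas the 15 rises had 21 windows. Of the 47 genes with an entry that rose 2-fold or more, 23 (48.9%) held a short form, and of 22 that fell as much 6 (27.3%) did. These shares are a description with no test. The upstream sequences below belong to 5 of the largest rises. Crem is shown because among the 15 searched it alone holds the palindrome, before 2 of its 3 annotated starts, and the others were picked after the search as large rises with short forms. Capitals mark the palindrome or a short form, and each line runs 5′ to 3′ and ends at the base before the start.
Crem, start 2 (chr17:58984547-58984796, + strand): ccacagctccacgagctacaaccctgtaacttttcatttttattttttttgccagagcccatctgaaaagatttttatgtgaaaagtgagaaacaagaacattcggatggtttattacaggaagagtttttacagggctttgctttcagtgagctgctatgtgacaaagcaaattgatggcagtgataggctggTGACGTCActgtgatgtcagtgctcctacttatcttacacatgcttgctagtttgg
Crem, start 3 (chr17:58985240-58985489, + strand): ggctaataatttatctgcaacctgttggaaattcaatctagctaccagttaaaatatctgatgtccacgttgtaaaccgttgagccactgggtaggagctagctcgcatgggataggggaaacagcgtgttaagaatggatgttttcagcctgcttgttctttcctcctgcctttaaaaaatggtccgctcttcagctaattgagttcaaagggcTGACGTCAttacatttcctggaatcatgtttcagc
Nr4a1 (chr7:134259888-134260137, + strand): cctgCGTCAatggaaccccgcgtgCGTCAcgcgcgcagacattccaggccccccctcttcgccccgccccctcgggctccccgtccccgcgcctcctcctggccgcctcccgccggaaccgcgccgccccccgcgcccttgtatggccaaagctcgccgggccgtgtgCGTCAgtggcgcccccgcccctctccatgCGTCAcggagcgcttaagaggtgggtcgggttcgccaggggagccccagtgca
Sik1 (chr20:9958647-9958896, - strand): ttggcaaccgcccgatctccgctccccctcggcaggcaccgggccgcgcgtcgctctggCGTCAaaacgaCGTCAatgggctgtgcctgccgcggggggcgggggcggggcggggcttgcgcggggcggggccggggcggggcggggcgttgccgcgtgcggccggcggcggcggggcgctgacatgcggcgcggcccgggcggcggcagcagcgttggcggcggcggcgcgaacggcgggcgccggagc
Vip (chr1:44470230-44470479, + strand): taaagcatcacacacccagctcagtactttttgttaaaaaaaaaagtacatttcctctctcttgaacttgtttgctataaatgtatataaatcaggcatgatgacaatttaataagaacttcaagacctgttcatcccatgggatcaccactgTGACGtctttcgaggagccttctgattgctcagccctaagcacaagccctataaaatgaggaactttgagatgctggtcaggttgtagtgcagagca
Tac1 (chr4:36645333-36645582, + strand): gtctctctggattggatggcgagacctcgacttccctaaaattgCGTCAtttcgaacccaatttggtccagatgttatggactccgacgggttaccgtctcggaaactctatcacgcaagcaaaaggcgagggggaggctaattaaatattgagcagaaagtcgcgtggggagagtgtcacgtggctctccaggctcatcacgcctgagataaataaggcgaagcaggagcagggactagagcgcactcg
In the Crem sequences the palindrome lies at bases -56 to -49 and -35 to -28 from the start. Nr4a1 holds 4 short forms, Sik1 2, and Vip and Tac1 1 each. Beyond Crem, the palindrome stood before 3 other genes called at least 2-fold higher, Scg2, Zdbf2 and Cbx8, and before Ier2, which was at least 2-fold lower.

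At an adjusted p under 0.05, 8833 of 17803 genes (49.6%) differed from the reference at 4 h, 3469 higher (19.5%) and 5364 lower (30.1%). Most of these differences were small: a rise of 2-fold or more was called for 82 genes (0.461%) and a fall of that size for 69 (0.388%), and the median of all genes was -0.034. The counts of large changes depend on the background correction. Without its offset they were 200 and 237, and with the scanner's processed signals 375 and 719. The median SD over the 3 arrays was 0.0764, and 8770 of the 8833 kept one direction on all of them. Calls followed brightness. With the genes in 4 bins of equal size from dim to bright, 23.8%, 42.8%, 64.4% and 67.5% were called. The shares of all genes given beside the lists below are not matched for brightness. Of the 69 large falls, 0 lay in the 2 dimmer bins, where 4 and 21 of the 82 large rises lay. The arrays themselves were alike, with 19889 to 20907 spots of forskolin RNA and 20913 to 23285 of reference RNA above background. Where each array was only centred on the median of its spots and not fitted by loess, the median of all genes lay at -0.58 and 2.35% of the calls were higher in place of 39.3%. For genes and lists that setting is therefore given relative to this median.

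**Figure D1:**
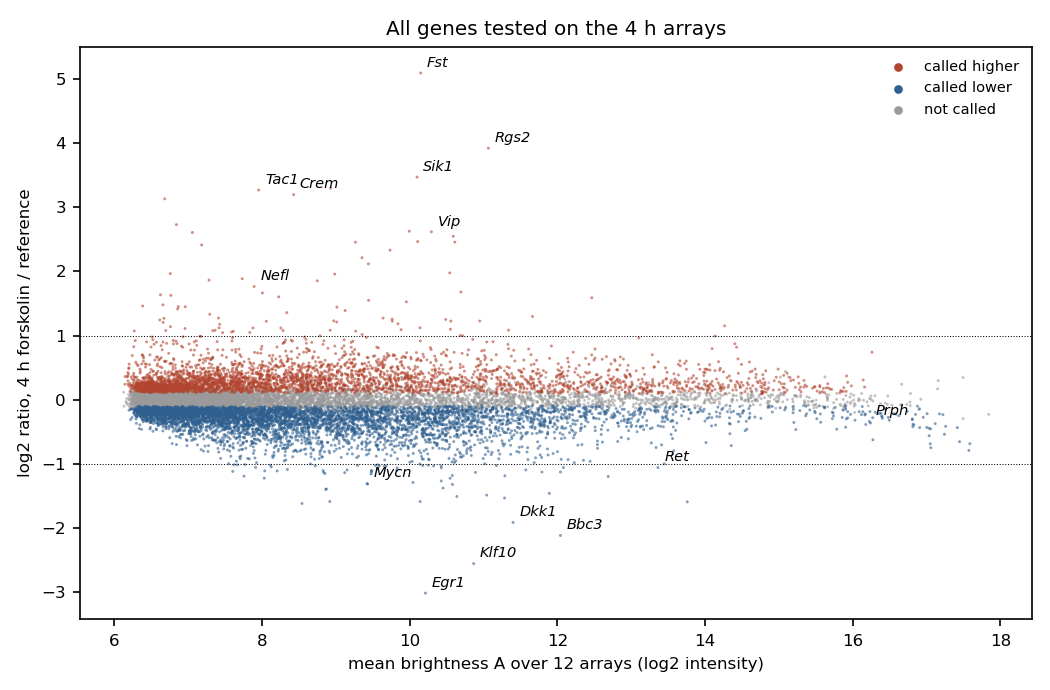
Mean brightness (log2 intensity, x axis) against the mean log2 ratio of 4 h forskolin over reference (y axis) for the 17803 genes tested. Red and blue points were called higher and lower, grey points were not called, and dotted lines mark 2-fold; 0 of the genes at least 2-fold lower lie in the 2 dimmer of 4 equal bins.

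The cells carried the markers of their labelled kind. Of 16 pan-neuronal markers, 14 stood well above background in forskolin RNA and 15 in reference RNA on all 3 arrays of 4 h, and Rbfox3 in neither. Of 19 sensory neuron markers on the array 12 and 13 were, while Trpv1, Scn11a, Avil and Ntrk2 were above it on no array in either channel. Of 14 sympathoadrenal and neuroblastoma markers 10 and 11 were. Of 16 Schwann and satellite glia markers 4 and 5 were and 8 were above background in neither channel, among them S100b and Gfap. Of 12 fibroblast markers 5 and 7 were, with Vim, Fn1 and Col1a1 in both. Of 14 leukocyte and endothelial markers 4 and 4 were.

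Several of the 24 largest rises among genes with a RefSeq name were in genes that are known to restrain cyclic AMP or G protein signalling. The rankings of genes below leave out transcripts without such a name. Rgs2, a GTPase-activating protein that switches off G protein alpha subunits, read 3.91, 3.93 and 3.92 on the 3 arrays, a 15.1-fold rise (SD 0.01, adjusted p = 5.1e-16). Sik1, the kinase that phosphorylates CRTC coactivators, read 3.64, 3.44 and 3.32 (11.1-fold, adjusted p = 1.5e-12). Crem read 3.24, 3.21 and 3.14 (9.16-fold, adjusted p = 3.5e-13), and a second Crem probe gave 2.23. Which Crem forms the probes measured was not determined. The phosphodiesterase gene Pde4d rose by 1.86 ± 0.11 (SD, n = 3), with 1.74, 1.91 and 1.94 on the arrays and 0.96 and 1.06 from its other probes. Pde10a, another phosphodiesterase of cyclic AMP and cyclic GMP, rose by 1.08 ± 0.16.

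**Figure D2:**
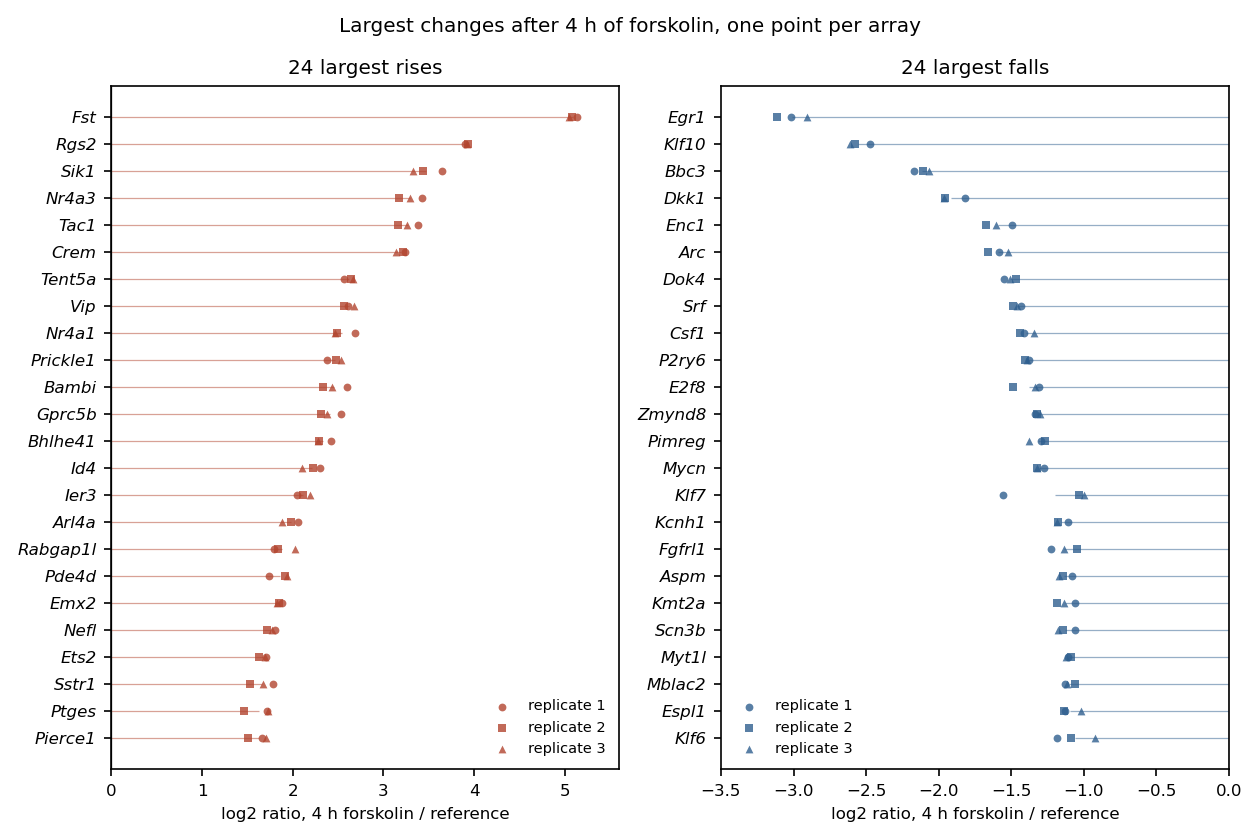
Log2 ratio of 4 h forskolin over reference (x axis) on each of the 3 arrays (symbols), with thin lines that end at the mean. Shown are the 24 largest rises (left) and the 24 largest falls (right) among genes with a RefSeq name. The arrays of a gene lie close together beside the size of its change, and the widest spread is that of Klf7, with one array at -1.56 and the others at -1.03 and -0.999.

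Of 9 measured phosphodiesterase genes 3 were higher, 2 lower and 4 not called. Of 28 measured genes for cyclases, G proteins, protein kinase A subunits and anchors, 7 were higher, 5 lower and 16 not called (all genes: 19.5% higher and 30.1% lower). The falls included the anchoring protein genes Akap5 (-0.70 ± 0.08) and Akap10 (-0.66 ± 0.06), the catalytic subunit gene Prkacb (-0.67 ± 0.05, second probe -0.23) and the cyclase gene Adcy9 (-0.37 ± 0.12). Prkar1a, a regulatory subunit that holds the kinase inactive, was higher by 0.64 ± 0.06 (1.23 on a second probe), but lay 0.15 below the median of all genes when arrays were only centred. Creb1 itself was slightly higher (0.14 ± 0.06, adjusted p = 0.023), a call lost without 4 h replicate 1 (adjusted p = 0.073) or 2 (0.16), and Ep300, an acetyltransferase coactivator, was lower (-0.45 ± 0.12). Of the 15 measured genes of CREB factors, coactivators and corepressors, 5 were higher, 3 lower and 7 not called, to be read against the same shares. Of 22 RGS, arrestin and receptor kinase genes 6 were higher and 9 lower, among them Rgs4 (-0.58 ± 0.05), and Gem, a small GTPase that restrains calcium channels, was higher (0.88 ± 0.19).

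All 3 NR4A genes, orphan nuclear receptors induced within minutes of many signals, were higher at 4 h. Nr4a3 read 3.43, 3.17 and 3.29, Nr4a1 2.68, 2.49 and 2.47 and Nr4a2 1.34, 1.24 and 1.41. The other Nr4a3 probes gave 0.16 and 2.58, so the size of that change depends on the probe. Bhlhe41, a repressor of the circadian clock, read 2.43, 2.29 and 2.28, and Id4, which binds basic helix-loop-helix factors and keeps them off DNA, read 2.30, 2.23 and 2.11, with 1.34 from a second Id4 probe. On their brightest probes all arrays of these genes lay above 1. The homeobox gene Emx2 (1.85 ± 0.02), Ets2 (1.68 ± 0.04, second probe 1.097), the C/EBP gene Cebpb (1.53 ± 0.20), Runx1 (1.22 ± 0.06), a factor of pain-sensing neurons, and Nfil3 (1.09 ± 0.04), a bZIP repressor, rose as well. The immediate-early factors as a group went both ways. Of 33 measured, 12 were higher (all genes: 19.5%), 11 lower (all genes: 30.1%) and 10 not called. Of the 33, 7 were higher by 2-fold or more (all genes: 0.461%) and 5 lower by as much (all genes: 0.388%). The median was -0.02, and 0.02 to 0.07 on 2 of 6 other scalings. Scaling between arrays is counted among the 6 here and below, but it leaves each ratio as it is.

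Among secreted proteins Fst, which encodes follistatin, the binding protein of activin, had the largest change of all, with 5.14, 5.08 and 5.05 on the arrays (34.1-fold, adjusted p = 4.1e-17) and 4.96 from a second probe. Tac1, the precursor of substance P, read 3.38, 3.16 and 3.26 and Vip, the vasoactive intestinal peptide precursor, 2.61, 2.56 and 2.67. The granin gene Scg2 rose by 1.39 ± 0.14. Vgf, a precursor of secreted peptides, was higher by 0.74 ± 0.13 but 0.15 below the median of all genes when arrays were only centred. For Nppc, the C-type natriuretic peptide gene, the reference was not well above background on any 4 h array, and forskolin was at least 1.74-fold higher (adjusted p = 2.9e-08). Npy went the other way with -0.62, -0.67 and -0.59, and Calca, the gene of calcitonin gene-related peptide, was slightly lower (-0.21 ± 0.006). In all, 10 of 27 measured neuropeptide and granule genes were higher and 6 lower (all genes: 19.5% higher and 30.1% lower). Slit2, a repellent ligand of growing axons, read 1.57, 1.62 and 1.63, Ptges, a prostaglandin E synthase, 1.71, 1.46 and 1.73, and the chemokine gene Cxcl12 rose by 0.98 ± 0.21.

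Activin, BMP and TGF-beta, the first of them bound by follistatin, act through receptor serine kinases and Smad proteins. Bambi, a receptor-like protein without a kinase that blocks this signalling, read 2.60, 2.34 and 2.43. Id4 rose as given above, whereas Id3, a target of BMP signalling, read -0.90, -0.96 and -0.91 and Id1 was not called (-0.11 ± 0.07), though it was with the slide as a block (adjusted p = 0.033). The brightest Id2 probe was higher by 0.47 ± 0.04, its other probes gave -0.17 and 0.53, and it lay 0.0696 below the median of all genes when arrays were only centred. Klf10, a zinc-finger gene induced by TGF-beta, read -2.48, -2.57 and -2.61, with -0.55 from a second probe. Gdf15, a divergent ligand of the family, was lower (-0.79 ± 0.04), as was the receptor gene Tgfbr1 (-0.72 ± 0.04), whose second probe gave 0.064. Of 35 measured genes of the pathway 10 were higher, 6 lower and 19 not called (all genes: 19.5% higher and 30.1% lower).

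Several of the largest rises were in membrane proteins and in genes of the cytoskeleton and membrane traffic. Gprc5b, an orphan receptor, read 2.54, 2.32 and 2.38. Sstr1, a somatostatin receptor that inhibits adenylyl cyclase, read 1.78, 1.53 and 1.67. Fgfr2, a receptor of fibroblast growth factors, read 1.46, 1.48 and 1.403 on its brightest probe, while its second probe gave -0.013. Nefl, the light neurofilament chain, read 1.81, 1.71 and 1.77. Prickle1, a planar polarity protein, rose by 2.46 ± 0.08, the small GTPase gene Arl4a by 1.98 ± 0.09, and Rabgap1l, a regulator of Rab GTPases, by 1.89 ± 0.12, with 0.53 from its second probe. Tent5a, a poly(A) polymerase, rose by 2.63 ± 0.06 (other probes 1.404 to 2.72), the early response gene Ier3 by 2.12 ± 0.07 and Pierce1, a protein of ciliary microtubules, by 1.63 ± 0.10.

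The largest fall was that of Egr1, the zinc-finger factor of growth factor and activity responses, which read -3.02, -3.11 and -2.91 and was 8.07-fold lower (adjusted p = 1.4e-13). Srf, the serum response factor that drives Egr1 and actin genes, read -1.43, -1.48 and -1.46, but its 3 other probes ranged from -0.79 to 0.44. Mycn, the MYC family oncogene of neuroblastoma, read -1.27, -1.32 and -1.32 (-0.85 on a second probe), and Klf7 -1.56, -1.03 and -0.999. Klf6 fell (-1.06 ± 0.13) on its brightest probe and read 0.021 on the other. The chromatin gene Zmynd8 read -1.34, -1.32 and -1.30, its other probes -1.19 and -0.028. Kmt2a, a histone H3 methyltransferase, read -1.06, -1.19 and -1.14, with -0.98 and -0.076 from others, and the neuronal factor Myt1l read -1.11, -1.08 and -1.12. E2f8, a repressor of cell cycle genes, fell (-1.38 ± 0.10), with -0.23 from its second probe. Ier2 fell as well, with -0.80, -0.84 and -1.43 on the arrays, one of which stood apart. Klf9 (-0.81 ± 0.05, second probe -0.12) and Atf3 (-0.78 ± 0.05) also fell.

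In growth factor signalling, Dok4, an adaptor of receptor tyrosine kinases, read -1.55, -1.47 and -1.51, and the insulin receptor substrate gene Irs2 fell (-0.98 ± 0.11), its 3 other probes giving -0.28 to -0.19. Fgfrl1, an FGF receptor without a kinase domain, read -1.23, -1.05 and -1.14. Ret, the receptor of GDNF ligands, read -1.05, -1.102 and -1.02 on its brightest probe, against 0.055 and 0.22 on its 2 others, so that its direction depends on the probe. Ntrk3, a neurotrophin receptor, fell (-0.68 ± 0.11) and Gfra2, a coreceptor of Ret, (-0.64 ± 0.11), while Fgfr1 rose by 0.78 ± 0.07. Of 28 receptor and insulin signalling genes 12 were lower, 7 higher and 9 not called (all genes: 19.5% higher and 30.1% lower). Csf1, a macrophage growth factor, read -1.41, -1.44 and -1.35 (-0.59 on a second probe) and Dkk1, a secreted Wnt antagonist, -1.81, -1.96 and -1.96. P2ry6, a receptor of uridine diphosphate, read -1.38, -1.403 and -1.39, and the tyrosine phosphatase gene Ptpre -0.92, -1.002 and -1.08 on its brightest probe and -0.028 and 0.10 on its others.

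Feedback genes of the ERK pathway, whose products dephosphorylate or restrain MAP kinases, went both ways. Dusp6, a phosphatase specific for ERK, read -0.79, -0.84 and -0.91, Dusp5 -0.70, -0.80 and -0.78 and the inhibitor gene Spry1 -0.75, -0.86 and -0.75, with -0.18 from a second Spry1 probe. The ERK-induced factor genes Etv5 (-0.80 ± 0.06) and Etv1 (-0.75 ± 0.05) fell, though other probes of both read as near the reference as -0.019 and 0.0085. Dusp1, which acts on several MAP kinases, was higher (0.85 ± 0.14). Of the 21 measured genes of this group 9 were lower, 5 higher and 7 not called (all genes: 19.5% higher and 30.1% lower). The median was -0.09 and stayed below 0 on all 6 other scalings, of which scaling between arrays could not move it.

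Bbc3, which encodes the pro-apoptotic protein PUMA, was the largest fall outside the transcription factors, with -2.17, -2.11 and -2.07 on the arrays and an adjusted p of 7.1e-10. Bik, another BH3-only gene, fell (-0.75 ± 0.19), Casp2 (-0.94 ± 0.06) and the pseudokinase gene Trib2 (-1.02 ± 0.10, second probe -0.41). Of 48 p53 target and apoptosis genes 17 were lower, 11 higher and 20 not called, close to the shares of all genes (30.1% lower and 19.5% higher). Among those higher were the antiproliferative genes Tob1 (1.08 ± 0.11) and Btg2 (0.97 ± 0.12). In the neuronal genes, Arc, an activity-regulated synaptic gene, read -1.58, -1.66 and -1.52 and Homer1, a postsynaptic scaffold gene, -0.59, -0.62 and -0.69. Enc1, a kelch protein of the nervous system, read -1.49, -1.67 and -1.61, and its second probe -0.47. The vesicle gene Sv2c (0.92 ± 0.08) and the pentraxin gene Nptx2 (0.90 ± 0.23, reference well above background on 2 of 3 arrays) rose.

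The ion channel list had few rises. Of 38 measured voltage-gated and sensory channel genes 2 were higher (all genes: 19.5%), 18 lower (all genes: 30.1%) and 18 not called. The median was -0.13 and lay between -0.30 and -0.12 on the 6 other scalings. The potassium channel gene Kcnh1 read -1.11, -1.18 and -1.19, and Kcnh2 read -0.72, -0.77 and -0.76. Scn3b, an auxiliary sodium channel subunit, read -1.06, -1.15 and -1.18. Hcn3, a pacemaker channel gene, fell (-0.60 ± 0.05) with -0.037 from a second probe, and the calcium channel subunit gene Cacnb3 fell (-0.44 ± 0.05). The calcium channel gene Cacna1d was the larger of the 2 rises (0.64 ± 0.13, second probe 0.14). All arrays of each gene named here fell on the same side of the reference.

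Mitosis had the highest share of lower genes among the 30 lists. Of 48 measured genes, 29 were lower (all genes: 30.1%), 5 higher (all genes: 19.5%) and 14 not called. The median of -0.21 was the one nearest to 0 over all 7 scalings, the others reaching -0.69. Espl1, the separase that splits sister chromatids, read -1.13, -1.14 and -1.02, the anaphase activator gene Cdc20 -1.005, -0.95 and -0.99, the kinesin gene Kif23 -0.72, -0.91 and -0.98 and the kinase gene Plk1 -0.91, -0.85 and -0.77. Foxm1, the factor that drives mitotic genes, fell (-0.68 ± 0.08). Aspm (-1.13 ± 0.05), a protein of spindle poles, and Pimreg (-1.31 ± 0.06), a mitotic regulator, fell outside the list, with -0.37 from a second Pimreg probe. Of 45 measured DNA replication genes 15 were lower, 9 higher and 21 not called, close to the shares of all genes. Pold1, the catalytic subunit of a replicative polymerase, fell (-1.06 ± 0.04), whereas Rrm1 of ribonucleotide reductase rose (0.62 ± 0.05, other probes 0.36 and 0.38). Pcna, the sliding clamp, was higher by 0.43 ± 0.10 (0.12 on a second probe), but 0.12 below the median of all genes when arrays were only centred. In G1, the cyclin gene Ccne1 fell (-0.84 ± 0.02), with -0.015 from its second probe, and the inhibitor gene Cdkn2d (-0.66 ± 0.04).

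**Figure D3:**
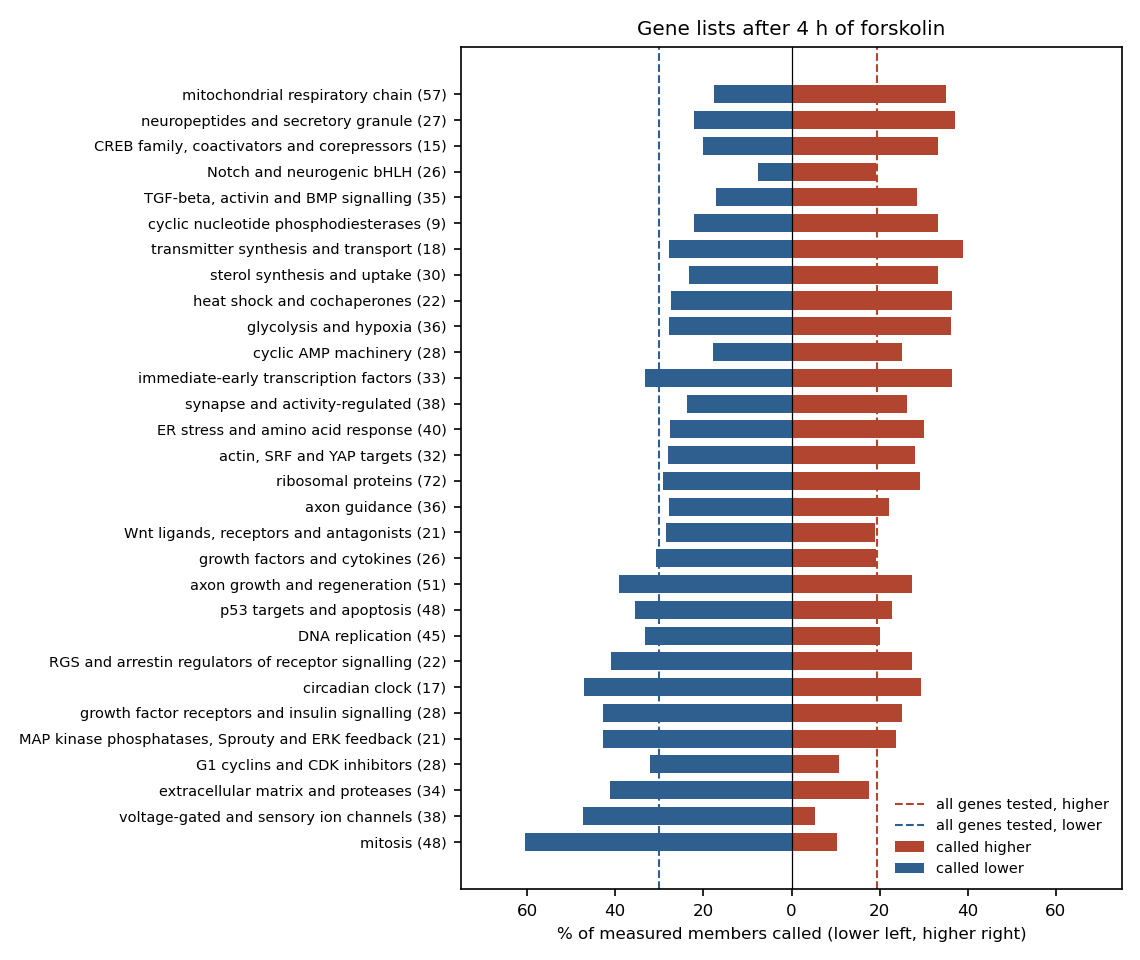
Share of the measured members of each of 30 gene lists (number in brackets) called lower (left, blue) and higher (right, red) at 4 h against the reference, ordered by the difference; dashed lines give the shares of all genes tested, 30.1% and 19.5%. Mitosis and the ion channels stand at the bottom.

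The other lists went both ways, and their counts stand against 19.5% higher and 30.1% lower of all genes. Those shares are not matched for brightness, and in the brightest of 4 bins 1188 of 4451 genes were higher and 1817 lower. Of 57 respiratory chain genes 20 were higher and 10 lower, a median of 0.06 that turned to -0.66 when arrays were only centred. Of 51 axon growth genes 14 were higher and 20 lower, of 38 synaptic genes 10 and 9, of 36 glycolysis and hypoxia genes 13 and 10, and of 26 Notch and neurogenic genes 5 and 2. Of 72 ribosomal protein genes 21 were higher and 21 lower, with a median of -0.0087 that went to -0.83 when arrays were only centred. Of 34 matrix and protease genes 14 were lower and 6 higher. In the circadian list 8 of 17 were lower, among them Per2 (-0.61 ± 0.08), Bmal1 (-0.56 ± 0.04) and the kinase gene Csnk1e (-0.70 ± 0.02, second probe -0.16), and 5 were higher, with Csnk1d at 0.83 ± 0.04 on its brightest and -0.10 on its second probe. Of 18 transmitter genes 7 were higher and 5 lower, with a median of -0.0175. Those higher included Glul, glutamine synthetase (0.996 ± 0.04, other probes 0.072 and 0.084), and Dbh, which makes noradrenaline (0.72 ± 0.06). Gch1 of the tetrahydrobiopterin pathway was also higher (0.64 ± 0.05), but 0.018 above the median of all genes and not called when arrays were only centred. Among 36 guidance genes the Eph receptor gene Epha4 was higher (0.70 ± 0.13, reference well above background on 1 of 3 arrays), and the netrin receptor gene Unc5c (-0.92 ± 0.11) and Plxnd1 (-0.66 ± 0.03) were lower. The Wnt receptor gene Fzd3 rose by 0.73 ± 0.08 and the transcription factor gene Hand2 by 0.90 ± 0.05. Among actin and SRF genes Rhob (0.93 ± 0.25) and Ccn1 (0.70 ± 0.09, reference well above background on 2 of 3 arrays, second probe 0.11) were higher and Actb (-0.75 ± 0.04) and Actg1 (-0.43 ± 0.06) lower. In the stress lists the co-chaperone gene Bag3 rose by 0.997 ± 0.07, while Herpud1 of the endoplasmic reticulum fell (-0.60 ± 0.07) on its brightest probe and read -0.057 on the other.

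Set against 2 h, 2783 of 17802 genes (15.6%) differed at 4 h, 988 higher (5.55%) and 1795 lower (10.1%). When arrays were only centred, 356 differed, 112 higher and 244 lower. Vip had the largest gain, with 2.61, 2.56 and 2.67 at 4 h against 0.41, 0.31 and 0.25 at 2 h, a difference of 2.29 (adjusted p = 5.3e-11). Fst followed with a difference of 2.21 and Crem with 1.80. Slit2 was not called at 2 h, reading 1.57, 1.62 and 1.63 at 4 h against 0.0010, -0.12 and 0.10 at 2 h. Rabgap1l (1.72), Pierce1 (1.36), Ptges (1.33) and Fgfr2 (1.31) made up the other large gains. Pde10a was likewise higher than at 2 h, by 1.05.

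The largest losses since 2 h were, apart from Bbc3, of 2 kinds. Junb, a component of the AP-1 factor, read -0.21, -0.34 and -0.30 at 4 h against 1.84, 1.77 and 1.72 at 2 h, and Id1 -0.026, -0.16 and -0.13 against 1.85, 1.83 and 1.77. Id3 crossed the reference, with the falls at 4 h given above against 1.17, 1.48 and 1.405 at 2 h, a difference of -2.28 (adjusted p = 3.1e-10). Btg2 was higher than the reference at both times and differed by -1.73 (0.97 at 4 h against 2.70 at 2 h). Fos was not called at 4 h (0.059 ± 0.08 at 4 h against 1.22 ± 0.10 at 2 h), but was called higher than the reference without background correction (0.12), with the scanner's processed signals (0.77) and relative to the median when arrays were only centred (0.54). Gadd45b stood at 0.0032 against 0.34. In the other kind the gene was near the reference at 2 h: Klf10 differed by -2.50, Enc1 by -1.53 and Srf by -1.43 with changes at 2 h of -0.049, -0.064 and -0.031. Bbc3 differed by -1.75 and was lower than the reference at 2 h already (-0.36 ± 0.37, adjusted p = 0.010). Its 2 h arrays read -0.79, -0.12 and -0.17, one of which stood apart. Of the 33 immediate-early factors 19 were lower at 4 h than at 2 h (all genes: 10.1%) and 5 higher (5.55%), and their median was -0.02 at 4 h against 0.41 at 2 h. Of 21 genes of ERK feedback 9 were lower than at 2 h and 2 higher. Adm, a vasodilator peptide gene, was lower than at 2 h (difference -1.01), as was Dusp1 (-1.19), both still above the reference. Of the mitosis genes 23 of 48 were lower than at 2 h and 0 higher.

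**Figure D4:**
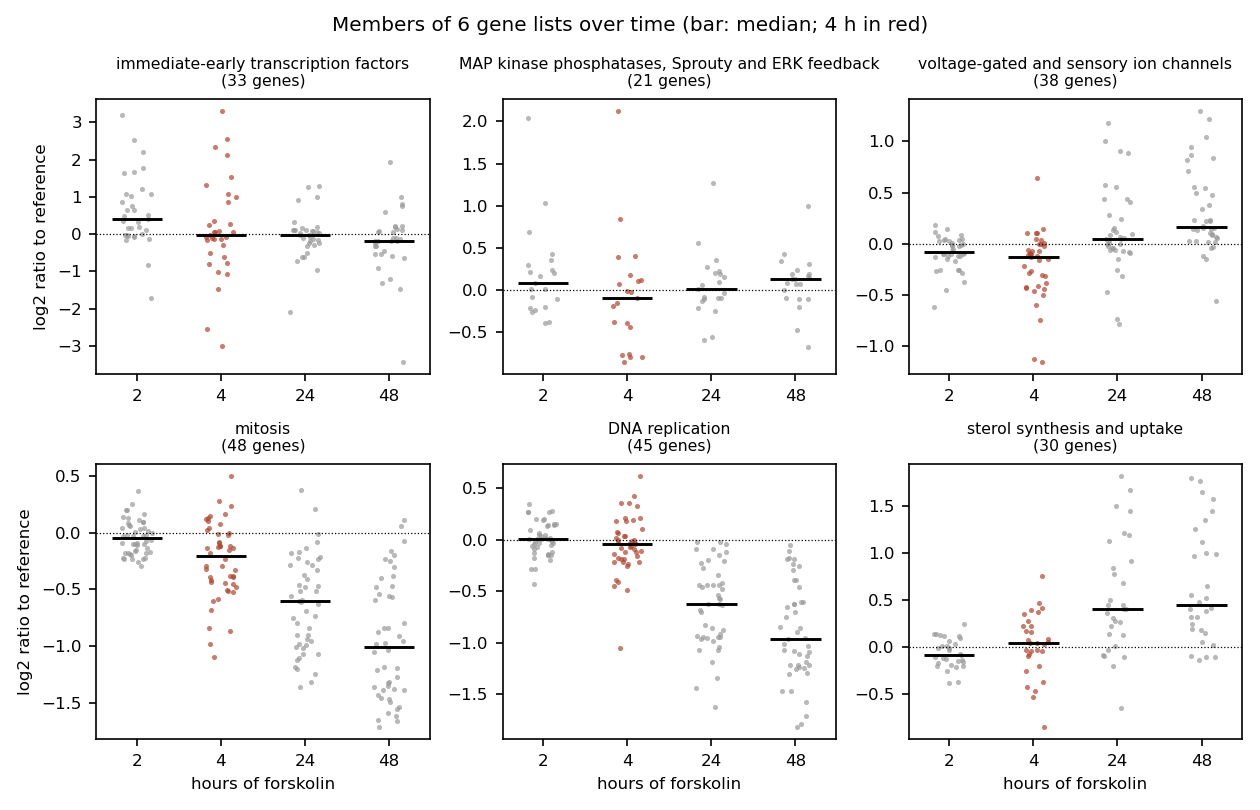
Log2 ratio to the reference (y axis) of each measured member of 6 gene lists at 2, 4, 24 and 48 h of forskolin (x axis, evenly spaced); black bars are medians and the 4 h points are red. Immediate-early factors had a median of 0.41 at 2 h and -0.02 at 4 h, and mitosis genes -0.05, -0.21 and -0.60 at 2, 4 and 24 h.

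Set against 24 h, 6896 of 17802 genes (38.7%) differed, 3164 higher (17.8%) and 3732 lower (21%) at 4 h. When arrays were only centred, 3354 differed and 20.5% of these were higher in place of 45.9%. The largest difference was that of Rgs2, which read 3.91, 3.93 and 3.92 at 4 h against 0.082, 0.18 and 0.12 at 24 h, or 3.79 (adjusted p = 1.6e-13). Nr4a3 differed by 3.38, Nr4a1 by 2.44, Tac1 by 2.45 and Sik1 by 2.29. Id4 crossed the reference, with 2.30, 2.23 and 2.11 at 4 h against -0.89, -0.95 and -1.08 at 24 h. The histone genes Hist1h2af (2.36) and H2ac25 (2.27) were far above their 24 h level with no rise at 4 h, where Hist1h2af was just below the reference (adjusted p = 0.048), a call lost without 4 h replicate 1 or 2 (adjusted p = 0.43 and 0.051). They belong to a family of near-identical genes, whose probes may share transcripts, and count as uncertain.

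Of the 8 genes furthest below their 24 h level, 5 were not called against the reference at 4 h. With the slide as a block Acox2 (adjusted p = 0.021) and Ampd3 (0.0066) of these were called. Tmem204, whose reference was well above background on 2 of 3 arrays, read 0.22, -0.017 and 0.24 at 4 h against 2.34, 2.81 and 2.50 at 24 h. The peroxisomal oxidase gene Acox2 (-0.15 at 4 h, forskolin well above background on 1 of 3 arrays, against 2.14 at 24 h), the aldo-keto reductase gene Akr1b8 (0.020 against 2.21), the desaturase family gene Fads3 (0.026 against 2.17) and Ampd3, an AMP deaminase (0.17 against 2.25), were not called at 4 h. P2ry6, Enc1 and Bbc3 were below the reference at 4 h, and P2ry6 read -1.38, -1.403 and -1.39 at 4 h against 0.89, 0.92 and 0.88 at 24 h. Of 45 DNA replication genes 37 were higher at 4 h than at 24 h (all genes: 17.8%) and 1 lower, and of 48 mitosis genes 36 and 1. Of 30 sterol genes 22 were lower at 4 h than at 24 h (all genes: 21%) and 1 higher, and Cyp51, a sterol demethylase, was higher than the reference at 4 h (0.76 ± 0.06) and more so at 24 h (1.19 ± 0.05). Srebf1, a regulator of lipid synthesis, fell at 4 h (-0.85 ± 0.07, other probes -0.34 and 0.0023) and was higher at 24 h (0.40 ± 0.07). Of 38 ion channel genes 24 were lower at 4 h than at 24 h and 1 higher.

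Some changes were largest at 4 h itself. Higher than the reference, than 2 h and than 24 h, each difference called, were 555 genes (3.12%), and 1024 (5.75%) were lower than all of these. When arrays were only centred, 45 and 161 were. Slit2 read -0.0091, 1.60, -0.015 and 0.30 at 2, 4, 24 and 48 h. Fgfr2 read 0.14, 1.45, 0.073 and -0.14 at these times on its brightest probe, Ptges 0.30, 1.63, 0.10 and 0.025, and Gprc5b 1.28, 2.41, 0.18 and -0.014. The arrays of Slit2 at 4 h did not overlap with those of 48 h, while its separation from 2 h and 24 h follows from how it was picked. Crem, Fst, Tac1, Rgs2, Rabgap1l and Nefl peaked in the same way. Apart from Slit2 and Fgfr2, these 10 genes were called higher than the reference at 2 h already. Sv2c was higher at 4 h (0.91, 0.86 and 1.01) than at 2 h (-0.037, -0.053 and -0.27) and at 24 h (-0.056, 0.069 and -0.047).

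Of the troughs, Bbc3 read -0.36, -2.11, 0.039 and 0.18 at 2, 4, 24 and 48 h, and Klf10 -0.049, -2.55, -0.51 and -0.58. P2ry6 (-0.13, -1.39, 0.90 and 1.38), Enc1 (-0.064, -1.59, 0.48 and 0.86) and Zmynd8 (-0.37, -1.32, 0.31 and 0.43) lay below the reference at 4 h and above it at 24 h. Dok4, Ptpre, Dkk1, Csf1 and Egr1 were the other 5 largest troughs, of which Egr1 was lower still at 48 h (-3.42) and Dkk1 was low at every time. For Emx2 the difference between 4 h (1.85 ± 0.02) and 24 h (1.77 ± 0.05) did not pass the test (adjusted p = 0.26).

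**Figure D5:**
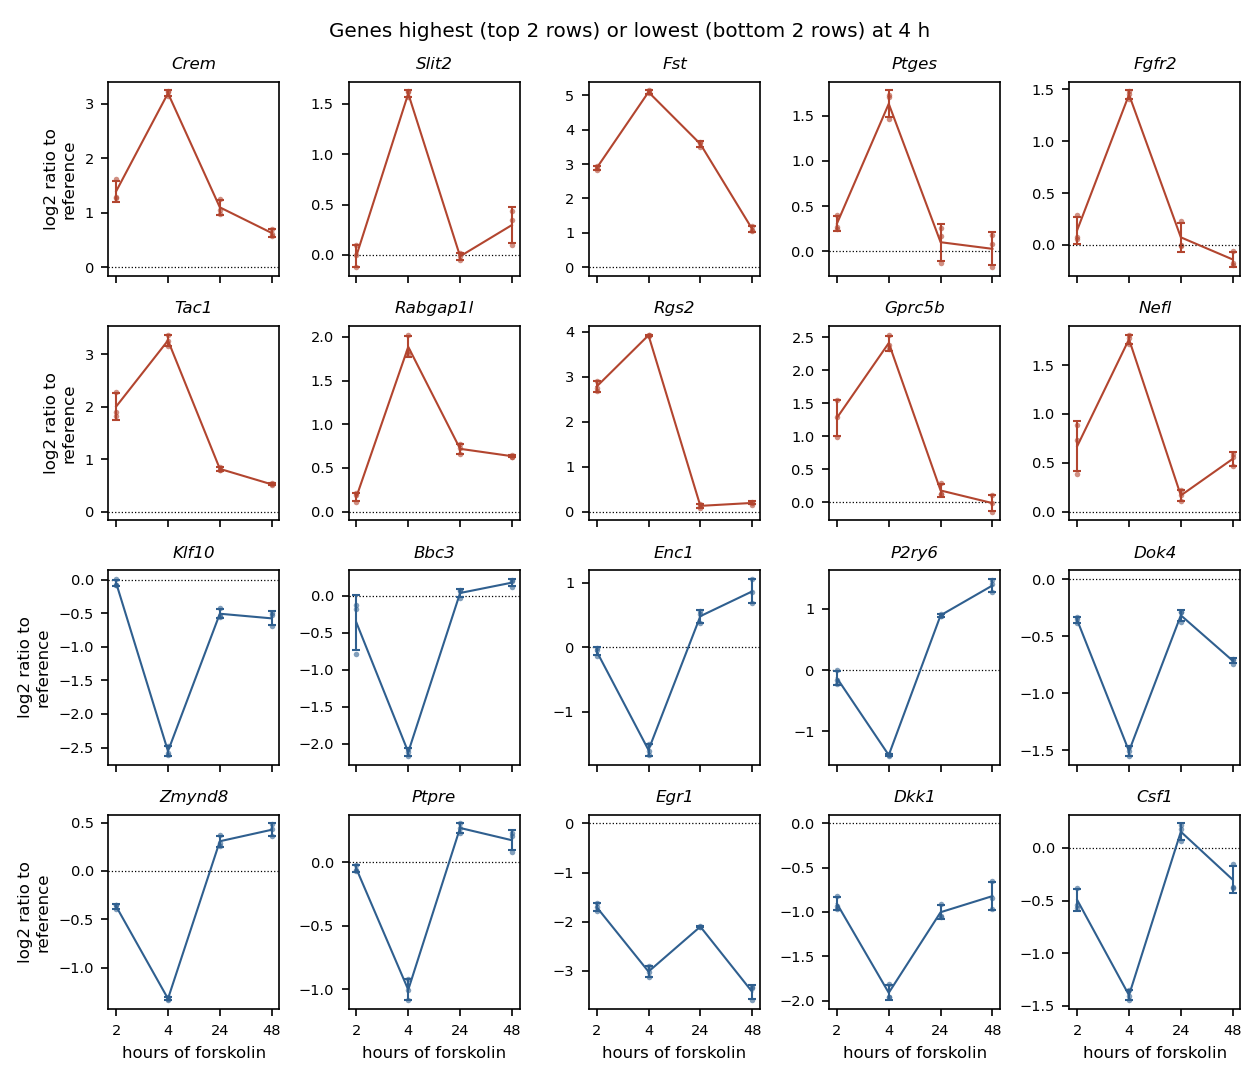
Log2 ratio to the reference (y axis, own scale per gene) at 2, 4, 24 and 48 h of forskolin (x axis, evenly spaced). Among genes with a RefSeq name, the 10 with the largest peak at 4 h are red and the 10 with the deepest trough blue. Dots are arrays, lines join means and bars are the SD of 3 arrays. Slit2 and Bbc3 lie near 0 at 24 h.

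The probes of the leading genes lie, in the rn3 coordinates of the files, on chromosome 2 from 46471460 to 46471519 for Fst, chromosome 13 from 57905038 to 57905097 for Rgs2, chromosome 17 from 62846921 to 62846980 for Crem, chromosome 14 from 67550743 to 67550802 for Slit2 and chromosome 7 from 73842027 to 73842086 for Klf10. No annotation of that build was used, so their place in exons or untranslated regions is not given. Unnamed transcripts made up 27 of the 82 rises of 2-fold or more and 34 of the 69 falls of that size, and RefSeq-named genes the other 55 and 35. Of all 17803 genes tested, 9353 had a RefSeq name and the rest were unnamed. The largest unnamed transcripts with both channels well above background on all 3 arrays were BF564195 (2.73 ± 0.14) and AW142654 (2.61 ± 0.16) among the rises and TC535323 (-1.62 ± 0.05) and TC545218 (-1.59 ± 0.13) among the falls.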

How the data were processed

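Agilent rat arrays with 2 colours measured 12 forskolin samples of F11 cells, 3 per time point, against 1 common reference. The deposited scanner files hold raw intensities of each spot and its local background in both channels, from Feature Extraction 9.5.1.1 with probes placed on rn3, per the file headers. They also hold processed intensities that the software had corrected for background and dye, per the file headers. The authors' deposited value table holds log2 ratios. Set against the scanner values on bright spots, its columns ran red over green with slopes of 1.03 to 1.05, correlations of 0.998 or more and medians of 0.0067 to 0.0125, so they were turned and used as an alternative. Their normalization was not found in any source used.

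From the raw intensities, background was corrected with normexp (offset 50), arrays were normalized by loess (control spots had weight 0), outlier spots were set to missing and the spots of each probe averaged (limma 3.58.1, R 4.3.3). Ratios were turned to green over red. A probe was kept if, for some time point, either channel was well above background on all 3 arrays, which 20631 of 41012 were, and the brightest stood for a gene. One mean per time was fitted over all 12 arrays with lmFit and eBayes. P-values were adjusted by Benjamini-Hochberg over all genes, and calls were made below 0.05. All adjusted p-values in the text are from this limma fit, and all are two-sided. Precision is limited by the number of arrays. The reference RNA of every array is shared by all comparisons against it. The fit and the calls were tested on simulated data that had no slide effect, and the normalization on raised signals of bright probes. The filter, the choice of probe and dim probes were not tested in this way. Names came from a RefSeq gene table where a probe's accession, symbol or synonym matched (20094 probes) and from the files otherwise.

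Genes named are the 24 largest rises and falls, the 8 largest differences each way from 2 h and from 24 h, the 10 largest peaks and troughs at 4 h, up to 6 called members per list, and uncalled list members. In the rankings a gene had to have a RefSeq name, a call and the same sign on all 3 arrays. Against 2 h and 24 h that was the sign of the difference between arrays of a slide. For the called members of a list the call alone was required. Further genes were chosen after their values were seen, as were the promoters shown other than Crem. Some items are not reported here. Members and lists were chosen with earlier results of these data known. Replicate numbers name the slides. Deviations of same-numbered arrays correlated by 0.053 to 0.474 (median 0.229 over the 9 pairs with 4 h) and those of different numbers by -0.397 to 0.284 (median -0.215). Not every pair passed 0.1, so the main fit has no block, and the slide as a block is given where it changes a call. Alternatives were the background correction, the scanner's signals, centring without loess, scaling between arrays, the filter, the probe rule, the authors' values, the slide as a block, an intensity trend, the 4 h arrays alone and leaving out each array.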

Additional observations from a re-analysis of the deposited data

Results flagged for a closer look

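The change at 4 h and the change at another time were of opposite sign on all arrays for the named genes given here, and in each the difference between the times was tested and called in the same limma fit. Against 2 h the differences were those of Id3 (-2.28), Junb (-2.06), Atf3 (-1.26), Klf9 (-1.15) and Dusp5 (-1.07), all lower than the reference at 4 h and higher at 2 h. Against 24 h, genes lower than the reference at 4 h and higher at 24 h were P2ry6 (-2.29), Enc1 (-2.07), Zmynd8 (-1.63), Csf1 (-1.55), Mblac2 (-1.43), Ptpre (-1.27), Srebf1 (-1.25), Ret (-1.18), Etv5 (-0.99), Kcnh2 (-0.99), Bmal1 (-0.81) and Rgs4 (-0.70). Genes higher than the reference at 4 h and lower at 24 h were Id4 (3.19), Sstr1 (1.85), Pcna (1.501), Id2 (1.42), Egr4 (1.28), Rrm1 (1.06) and Creb1 (0.39). At least 1 other probe lay on the other side of the reference at 4 h, or within 0.1 of it, for Ret, Ptpre, Etv5, Zmynd8, Srebf1 and Creb1, and one of Id2 was below it, so these crossings depend on the probe. Other probes of Enc1 and Klf9 gave smaller falls.

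Over all genes, 98 were called in opposite directions at 4 h and 2 h, against 3991 called in the same direction at both, and 1528 were called in opposite directions at 4 h and 24 h. Both times share the reference. Groups of 3 arrays were not tested for outlying samples.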

How the results depend on the processing

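With each array centred on the median of its spots in place of loess, 13894 genes were called against the reference, with 27 rises and 4914 falls of 2-fold or more, 356 against 2 h with 17 at least 2-fold higher, and 3354 against 24 h with 79 at least 2-fold higher, while peaks at 4 h numbered 45 and troughs 161. Of the calls against the reference 2.35% were then higher in place of 39.3%, and of those against 24 h 20.5% in place of 45.9%. Without the normexp offset, 200 and 237 genes were at least 2-fold higher and lower than the reference, 86 and 104 than at 2 h, and 301 and 528 than at 24 h. With the scanner's processed signals these were 375 and 719, 148 and 219, and 583 and 931. Relative to the shifted median, centring without loess turned round Acox2 (0.40), Akr1b8 (-0.53), Fads3 (-0.43), Id2 (-0.0696), Pcna (-0.12), Prkar1a (-0.15) and Vgf (-0.15). It also turned round the list medians of cyclic AMP machinery, immediate-early factors, Wnt, growth factor receptors, neuropeptides, sterol, stress, clock, glycolysis, matrix, Notch and respiratory chain genes. The cause was not tested.

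With the slide as a replicate block, 9690, 3492 and 7693 genes were called against the reference, 2 h and 24 h, and counts stayed within 1.5 times. Leaving out 1 array gave 7127 to 7441, 1858 to 2268 and 5949 to 6253. Among named genes the calls of Creb1 and Hist1h2af against the reference were each lost without 4 h replicate 1 or 2 and without the filter, that of Hist1h2af also with processed signals and those of Creb1 and Gch1 when arrays were only centred. Processed signals brought calls of Acox2 (-1.12), Ampd3 (0.88), Fos (0.77) and Tmem204 (0.56), and the block those of Acox2, Ampd3 and Id1. Id1 was also called with an intensity trend and without 4 h replicate 1, Acox2 without the offset, with the authors' values and without 4 h replicate 2, Ampd3 without background correction and without 4 h replicate 2, and Fos without background correction. Relative to the median of centred arrays Ampd3, Fos, H2ac25, Id1 and Tmem204 were called. In the 2 dimmer of 4 bins of brightness 0 genes were called at least 2-fold lower, and the cause was not tested.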
